A study of Mus musculus with 12 samples.

Results

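Insulin-like growth factor 1 and the proteins that carry it in the blood were examined in the livers of hepatocyte-specific Phgdh knockout mice. Phgdh encodes 3-phosphoglycerate dehydrogenase, the first enzyme of de novo serine synthesis. The examined genes were Igf1, its serum partner Igfals, the binding protein genes Igfbp1, Igfbp2, Igfbp3, Igfbp4 and Igfbp7, the growth hormone receptor gene Ghr, and the growth hormone response genes Socs2 and Cish. Probes were assigned to them through the RefSeq accession of each probe, and 17 probes of the 39429 on the array read these 10 genes. All 17 probes were well above background on all 12 arrays, so all 10 genes were among the 16915 genes tested, each represented by its brightest probe.

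Liver RNA came from 6 control mice (Floxed) and 6 knockout mice (LKO), 1 mouse on each single-color Agilent array. All mice were C57BL/6 males, 30 weeks old, on chow with 20% casein. Floxed mice were littermates carrying Phgdh flox/flox without Cre, so both groups carried the floxed alleles, and LKO mice were Alb+/Cre;Phgdh flox/flox. Cre was driven by the albumin promoter, which is active in hepatocytes, and other liver cells keep an intact Phgdh gene. All values are log2 intensities after quantile normalization, a difference is LKO minus Floxed on that scale, and levels of different genes are not compared, because probes differ in brightness.

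In the liver, growth hormone binds its receptor Ghr, which activates the kinase Jak2 and the transcription factors Stat5a and Stat5b, and these turn on Igf1 together with Socs2 and Cish, whose proteins feed back to dampen the signal. Igf1 protein circulates mainly in a complex with Igfbp3 and the acid-labile subunit encoded by Igfals. Igfbp1, in contrast, is a short-lived carrier whose hepatic transcription is repressed by insulin and rises on fasting.

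The promoters of 3 of these genes hold the letters through which the 2 hormones are known to act, and these stretches are shown because growth hormone targets and an insulin target are set side by side below. The reference table held RefSeq promoters of 300 bases, from 250 before to 50 after a transcription start, for 9 of the 10 genes (build GRCm38.p6). Socs2 had no entry. In each line capitals mark the motif, and all 3 stretches are from the plus strand. The motif TTCNNNGAA, which STAT5 proteins bind, occurred in 8.30% of all 32851 promoters in the table, and in 0.457% at least 2 times. The letters CAAAACA of the insulin response element, searched on both strands, occurred in 6.28%. Of the 13 promoters of the 9 genes, 3 held the STAT5 motif and 1 the insulin response letters. The Cish stretch is chr9:107296539-107296688, the last 120 bases before and the first 30 after the start. The Igfals stretch is chr17:24878111-24878230, the 120 bases before one of its starts. The Igfbp1 stretch is chr11:7197637-7197786, the 150 bases before the start.
Cish: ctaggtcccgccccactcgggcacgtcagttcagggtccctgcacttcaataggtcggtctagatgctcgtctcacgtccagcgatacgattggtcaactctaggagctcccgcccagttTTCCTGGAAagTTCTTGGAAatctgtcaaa
Igfals: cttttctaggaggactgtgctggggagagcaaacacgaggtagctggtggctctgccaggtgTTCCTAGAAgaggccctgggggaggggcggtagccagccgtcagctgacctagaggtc
Igfbp1: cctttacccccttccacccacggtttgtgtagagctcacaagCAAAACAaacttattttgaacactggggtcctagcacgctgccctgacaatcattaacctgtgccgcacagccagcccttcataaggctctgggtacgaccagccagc
The Cish promoter held 2 matches, TTCCTGGAA with its first base at position 1 from the start and TTCTTGGAA at position 12. In Igfals TTCCTAGAA began at position -58, and the promoter of another start held TTCTCAGAA at position -236. In Igfbp1 CAAAACA began at position -108. A match is a run of letters and no evidence of binding in these livers.

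The arrays lay on 3 slides of 4 arrays. Slide 1 held Floxed 1 to 4, slide 2 held Floxed 5 and 6 with LKO 1 and 2, and slide 3 held LKO 3 to 6, so both genotypes were present on slide 2 only. The Phgdh probe gave 5.18 ± 0.23 (SD, n = 6) in Floxed and 4.70 ± 0.41 (SD, n = 6) in LKO livers, a difference of -0.48 with a standard error of 0.18 (limma adjusted p = 0.451, exact permutation p = 0.0346). The arrays labeled LKO 1 and LKO 2 read 5.07 and 5.30 and lay inside the Floxed range of 4.81 to 5.50, while the other LKO arrays lay below it. These 2 are the only LKO arrays on slide 2, where Phgdh differed by -0.055, so the values within slide 2 given below compare labeled genotypes that the Phgdh probe did not separate. That probe was dim, with both group means below those of Igfbp3, a gene brighter on average than only 16.8% of the tested genes. Phgdh was called in the fit of all arrays. With slide as a fixed block (-0.055) and with arrays scaled to the 75th percentile (-0.34) it was not called, and with normexp background correction (-0.19) and the raw median intensity (-0.15) it was smaller but called. A second Phgdh probe, well above background on 4 of the 12 arrays, gave 0.30. Whether the probe reads the deleted exons was not analysed here. Of the 7 hepatocyte markers tested, which include Alb and Apoa1, none was called, and their median difference was -0.10. At an unadjusted limma p below 0.05, the criterion of the array methods, 1413 genes or 8.35% of all tested genes were called (4.92% higher and 3.43% lower in LKO), and none passed after Benjamini-Hochberg adjustment, where the smallest adjusted p was 0.132. By the methods' t-test 1236 genes were called, and 1 of them passed after adjustment. Of the called genes 58.9% were higher in LKO, a share that was 78.1% with arrays scaled to the 75th percentile instead. Each value is 1 mouse, and with 12 mice the number of arrays sets the precision.

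Of the 10 genes, 1 was called, Cish, which was lower in LKO livers. That is 10% of the genes against 8.35% of all tested genes, so the share lay near the background. Igf1, Ghr, Igfals and the 5 binding protein genes did not pass the test in either direction. Differences were negative for 8 genes and positive for 2, with a median of -0.07 against -0.0035 for all tested genes, and Igfbp3 turned positive (0.074) with arrays scaled to the 75th percentile. No adjusted p of these genes was below 0.598. The plot of the individual livers shows the 10 genes on one span.

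**Figure D1:**
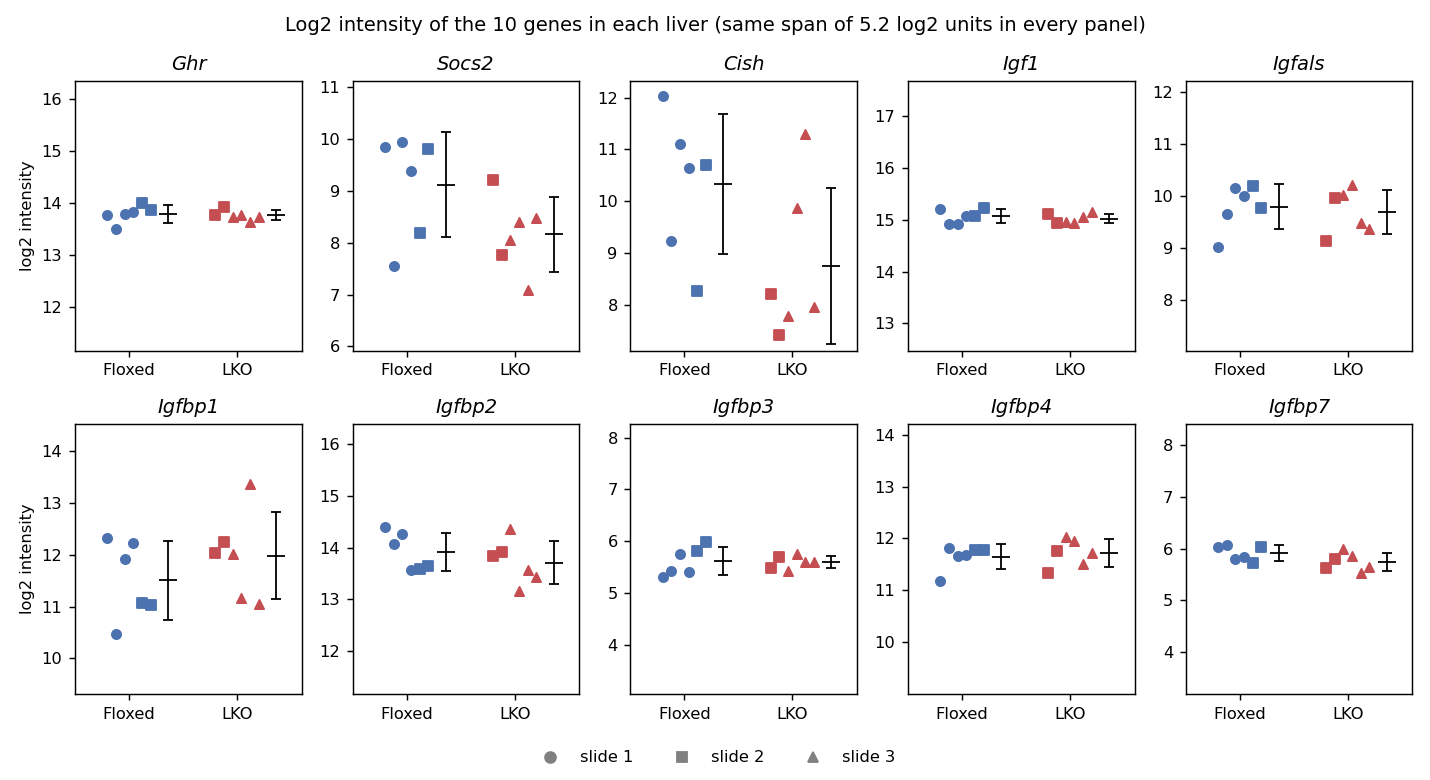
Log2 intensity of the 10 genes in each liver, with Floxed mice in blue and LKO mice in red, and circles, squares and triangles for slides 1, 2 and 3. Horizontal ticks with bars show the mean and SD (n = 6). Every panel covers 5.2 log2 units, and the points of Igf1 and Ghr lie close together while those of Cish span most of the panel.

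Ghr, which encodes the receptor that makes hepatocytes responsive to growth hormone, ranged from 13.49 to 14.01 in Floxed livers (median 13.81) and from 13.64 to 13.93 in LKO livers (median 13.75). The LKO values all lay inside the Floxed range. The difference was -0.03 with a standard error of 0.09 and a 95% interval of -0.22 to 0.16 (limma adjusted p = 0.978, exact permutation p = 0.745). The second Ghr probe gave -0.04, and the values of the 2 probes correlated at r = 0.79 over the arrays.

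Igf1, the growth factor itself, ranged from 14.92 to 15.22 in Floxed livers (median 15.06) and from 14.94 to 15.14 in LKO livers (median 15.00). By this probe, the brightest of 4, the 12 livers spanned a 1.23-fold range, and the LKO values lay inside the Floxed range. The second brightest probe gave -0.13 (unadjusted limma p of 0.0988 in a fit of all probes). By that probe LKO 4 at 14.502 and LKO 5 at 14.517 lay below the lowest Floxed liver at 14.524. Another of the probes ran from 11.54 to 12.32 in Floxed livers, with LKO 1 above that range at 12.39 and LKO 3 below it at 11.46, and a dimmer probe ran from 7.95 to 8.89 over all livers. By the brightest probe the difference was -0.05 with a standard error of 0.08 and a 95% interval of -0.22 to 0.12. That is a fold between 0.860 and 1.09 (limma adjusted p = 0.968, exact permutation p = 0.463). The 4 Igf1 probes gave differences from -0.13 to 0.04. Their values correlated with each other at r between 0.33 and 0.87. Among mice of one genotype the SD of Igf1 was 0.114 and lay in the lower part of all tested genes.

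Igfals encodes the acid-labile subunit, which the liver makes to stabilise circulating Igf1. It ranged from 9.02 to 10.19 in Floxed livers (median 9.88) and from 9.14 to 10.21 in LKO livers (median 9.73). The groups overlapped almost entirely, with a difference of -0.10, a standard error of 0.22 and a 95% interval of -0.58 to 0.38 (limma adjusted p = 0.975, exact permutation p = 0.688).

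Cish encodes a suppressor of cytokine signaling that is induced by STAT5 and blocks its docking to the receptor. In Floxed livers 1 to 6 it read 12.02, 9.24, 11.11, 10.64, 8.27 and 10.70. In LKO livers 1 to 6 it read 8.22, 7.42, 7.79, 9.88, 11.29 and 7.96. LKO 1, 2, 3 and 6 lay below the lowest Floxed liver, whereas LKO 4 and LKO 5 lay inside the Floxed range. The means were 10.33 ± 1.35 (SD, n = 6) in Floxed and 8.76 ± 1.505 (SD, n = 6) in LKO livers. The difference was -1.57 with a standard error of 0.73, a fold of 0.336, and its 95% interval ran from -3.15 to -0.0016. The unadjusted limma p was 0.0498 and the adjusted p was 0.598. All arrangements of the 12 values gave a two-sided exact permutation p of 0.0887, so the call stood at the threshold of one test and was absent in the other. Within slide 2 the difference was -1.67. The difference was negative under all 27 alternatives, from -2.08 without LKO 5 to -1.10 without LKO 1 and LKO 2, and it was called under 10 of them. Leaving out any of Floxed 1, 3, 4 or 6 or LKO 1, 2, 3 or 6 ended the call, with differences between -1.51 and -1.24.

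Socs2 encodes another STAT5-induced suppressor, known for restraining growth hormone signaling and body growth. In Floxed livers 1 to 6 it read 9.85, 7.55, 9.95, 9.39, 8.18 and 9.80. In LKO livers 1 to 6 it read 9.22, 7.75, 8.05, 8.40, 7.09 and 8.48. The 4 highest livers were all Floxed and all 6 LKO livers lay below the Floxed median, but Floxed 2 and Floxed 5 lay among the LKO values. The means were 9.12 ± 1.01 (SD, n = 6) and 8.16 ± 0.72 (SD, n = 6). The difference was -0.95 with a standard error of 0.45, a fold of 0.516, and its 95% interval of -1.92 to 0.01 included 0. Socs2 did not pass the test, with an unadjusted limma p of 0.0529, an adjusted p of 0.602 and an exact permutation p of 0.0974. With same-numbered mice as blocks it was called (unadjusted limma p of 0.00438), and no gene of that fit passed after adjustment. Same-numbered mice have neighboring animal numbers, but no label says that a number marks a litter. Within slide 2 the difference was -0.50. Under the 27 alternatives it stayed negative, between -1.27 without Floxed 2 and -0.50 within slide 2, and it was called under 8 of them.

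For Socs2 the array itself gave a measure of the error between spots, since its brightest probe was printed on 10 spots of each array. The SD among those spots lay between 0.0359 and 0.0995 (median 0.065), against an SD between mice of 1.01 in Floxed and 0.72 in LKO livers. The 3 Socs2 probes gave differences of -0.99 to -0.89 and their values correlated at r between 0.977 and 0.991. Spots of an array share RNA, labeling and hybridization, so their SD leaves out the error between arrays.

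**Figure D2:**
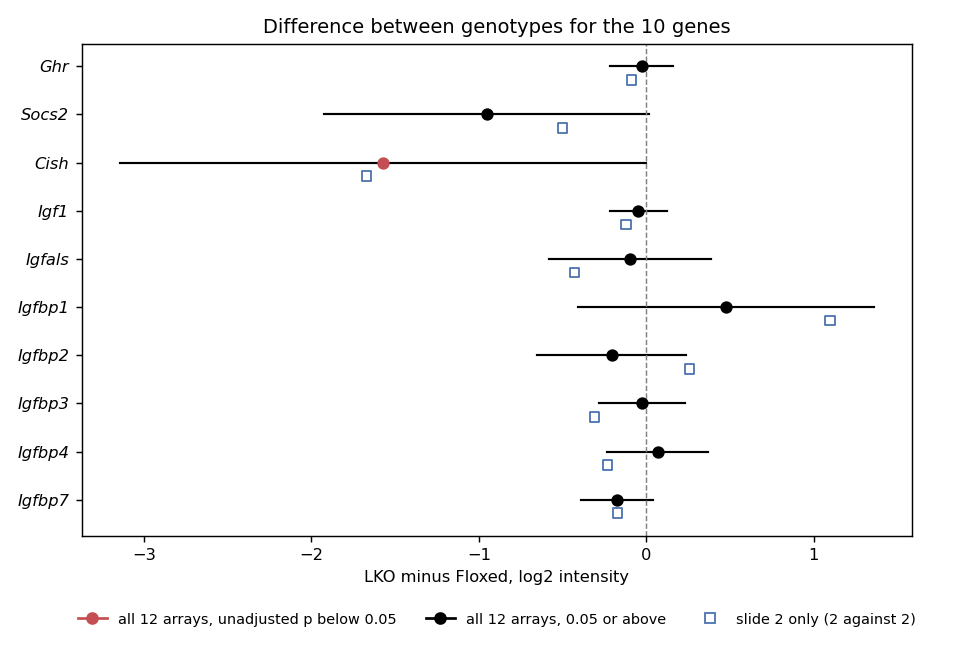
Difference in log2 intensity, LKO minus Floxed, for the 10 genes over 12 arrays (circles, with the 95% interval from limma) and within slide 2 only, 2 against 2 (open squares, no interval). The interval of Cish ends just below 0, and those of the other 9 genes include 0.

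Among the 5 binding protein genes examined, Igfbp1 varied most. In Floxed livers 1 to 6 it read 12.33, 10.47, 11.91, 12.23, 11.08 and 11.02. In LKO livers 1 to 6 it read 12.04, 12.25, 12.02, 11.16, 13.36 and 11.05. The highest liver was LKO 5 and the lowest Floxed 2, a 7.43-fold span, and the other 5 LKO livers lay inside the Floxed range. The difference was 0.47 with a standard error of 0.41, a fold of 1.39, and a 95% interval of -0.41 to 1.36 (limma adjusted p = 0.894, exact permutation p = 0.327). Within slide 2 the livers labeled LKO 1 and LKO 2, whose Phgdh lay inside the Floxed range, both exceeded the Floxed livers, with a difference of 1.10 from 2 against 2 arrays. A limma fit of that slide alone gave a standard error of 0.15 (unadjusted p of 0.000693, adjusted p of 0.236). With slide as a fixed block over all arrays the same difference had a standard error of 0.72 and was not called (unadjusted p of 0.156). The difference was 0.16 between slides 1 and 3 and not called, and without LKO 5 the difference over all slides was 0.20.

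Igfbp2, a carrier that the adult liver secretes, ranged from 13.57 to 14.39 in Floxed livers (median 13.86) and from 13.16 to 14.35 in LKO livers (median 13.70). The groups overlapped, with a difference of -0.21, a standard error of 0.21 and a 95% interval of -0.65 to 0.24 (limma adjusted p = 0.925, exact permutation p = 0.374). Within slide 2 it had the other sign, 0.26. Its 2 probes followed each other at r = 0.989.

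Igfbp3 encodes the main carrier of circulating Igf1, made in the liver chiefly by non-parenchymal cells, and lies next to Igfbp1 on chromosome 11 (chr11:7206086-7215498 beside chr11:7197787-7202546, build GRCm38.p6). It ranged from 5.32 to 6.00 in Floxed livers (median 5.59) and from 5.43 to 5.76 in LKO livers (median 5.60). All LKO values lay inside the Floxed range, with a difference of -0.02, a standard error of 0.12 and a 95% interval of -0.28 to 0.23 (limma adjusted p = 0.989, exact permutation p = 0.846). Despite the shared position, Igfbp1 and Igfbp3 gave r = -0.32 over the 12 livers (rho = -0.43, permutation p = 0.313 and 0.163).

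Igfbp4, an abundant inhibitor of Igf action, ranged from 11.17 to 11.82 in Floxed livers (median 11.73) and from 11.33 to 12.03 in LKO livers (median 11.74). Its difference was 0.07 with a standard error of 0.14 and a 95% interval of -0.23 to 0.37 (limma adjusted p = 0.974, exact permutation p = 0.652). Without Floxed 1, the lowest liver, it was -0.03, and within slide 2 it was -0.23.

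Igfbp7, a low-affinity family member found in vessels and stroma, ranged from 5.72 to 6.07 in Floxed livers (median 5.93) and from 5.52 to 6.00 in LKO livers (median 5.71). Of the LKO livers 3 lay below the lowest Floxed liver and none above the highest. The difference was -0.18 with a standard error of 0.10 and a 95% interval of -0.39 to 0.04 (limma adjusted p = 0.730, exact permutation p = 0.0931), and it was -0.17 within slide 2. It was -0.098 with arrays scaled to the 75th percentile, -0.072 with normexp background correction and -0.080 with the raw median intensity. In whole liver, fewer cells of a type and less RNA per cell cannot be told apart. Of 9 sinusoidal endothelial markers 1 was called, Pecam1, at 0.70 (standard error 0.18, limma adjusted p = 0.273), and the list had a median of -0.01 and a summed linear intensity of 17948 to 21167 in Floxed and 17260 to 25675 in LKO livers. The Pecam1 difference within slide 2 was 0.04. Of 9 stellate cell markers none was called, with a median of -0.01 and sums of 17619 to 21914 in Floxed and 16498 to 24347 in LKO livers. The part of these cells in the Igfbp3 and Igfbp7 values was not tested.

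The 10 genes differed strongly in how much they varied between mice of one genotype. The SD within genotype was 1.43 for Cish, at percentile 99.9 of all tested genes, 0.88 for Socs2 at percentile 99.3 and 0.80 for Igfbp1 at percentile 98.9. Igfals followed with 0.43 at percentile 89.4. At the other end stood Igf1 at percentile 10.7 and Ghr, with 0.136, at percentile 18.6. By the brightest probe the 12 livers spanned a 24.3-fold range in Cish and a 7.25-fold range in Socs2, against 1.23-fold in Igf1 and 1.43-fold in Ghr. Dimmer probes of Igf1 and Ghr varied more, with SDs within a genotype of up to 0.33 for Igf1 and 0.34 for Ghr.

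**Figure D3:**
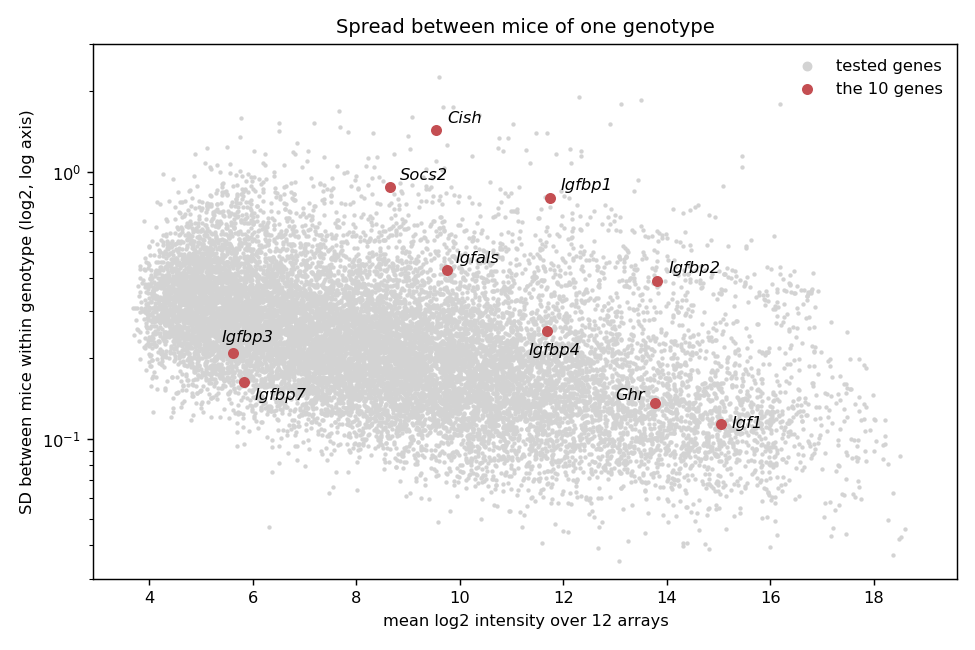
SD of log2 intensity between mice of one genotype (log axis) against the mean log2 intensity over 12 arrays for all tested genes in grey and the 10 genes in red. Cish, Socs2 and Igfbp1 lie at the upper edge of the cloud, and Igf1 and Ghr lie in its lower part.

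The variation of Cish was set against that of Socs2. Over the 12 livers Pearson's r was 0.45 and Spearman's rho 0.43 (permutation p = 0.138 and 0.167, adjusted p = 0.578 and 0.647 over the 45 pairs of the 10 genes), and r was 0.16 without Floxed 1 and Floxed 3. Within the Floxed mice r was 0.86 and within the LKO mice -0.49, a difference that was not tested. LKO 5 had the highest Cish of the LKO livers and the lowest Socs2 of all 12. Without it r over the other livers of both genotypes was 0.77, a value that includes the difference between genotypes. The r within the remaining LKO livers was not computed. With each genotype centred on its mean r over all 12 livers was 0.26. The array of LKO 5 also had the lowest 75th percentile of intensity of all 12 arrays (239, against 258 to 473 in Floxed) and the fewest probes well above background among LKO arrays (22399), and their part in its values was not tested. With each slide centred on its mean r was 0.39. LKO 5 also had the highest Igfbp1 of all livers and the lowest value, 12.97, of Pck1, the gluconeogenic enzyme gene that insulin represses.

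No pair of the 10 genes passed after adjustment over the 45 pairs, and 3 had an unadjusted permutation p of r below 0.05. Igfals and Igfbp4 gave r = 0.79 (rho = 0.62, permutation p = 0.00201 and 0.0352, adjusted p = 0.0904 and 0.639), which fell to 0.45 without Floxed 1 and LKO 1, the livers lowest in both. With each slide centred on its mean it was 0.84. Igf1 was inversely related to Igfals at r = -0.63 (rho = -0.57, permutation p = 0.0321 and 0.0549, adjusted p = 0.578 and 0.639), and -0.62 without Floxed 1 and Floxed 6. With slides centred it was -0.66. Igf1 and Igfbp4 gave r = -0.58 (rho = -0.36, permutation p = 0.0476 and 0.255, adjusted p = 0.578 and 0.669), -0.60 without the same 2 livers, -0.61 with slides centred and -0.39 with arrays scaled to the 75th percentile. That scaling gave 0.73 for Igfals with Igfbp4 and -0.73 for Igf1 with Igfals. Both pairs with Igf1 rest on its brightest probe. The 4 Igf1 probes correlated with each other at r between 0.33 and 0.87, and the pairs were not computed with the dimmer ones.

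Of 8 regulators of Igf1 and of growth hormone targets in hepatocytes, 6 were tested and none was called. The one with the largest difference was Bcl6, a repressor that occupies STAT5 sites and is itself repressed by growth hormone, with 0.35 and a standard error of 0.76 (limma adjusted p = 0.975). Its comparison with Cish was chosen after the values were seen. Bcl6 read between 8.77 and 10.25 in 5 livers (Floxed 1, 3 and 6 and LKO 4 and 5) and between 11.55 and 12.65 in the other 7. In those 5 livers Cish lay between 9.88 and 12.02, and in the 7 livers it lay between 7.42 and 10.64, where 6 were below 9.88. The exception was Floxed 4, with Bcl6 at 12.01 and Cish at 10.64. Both genotypes were present in both ranges. Because the livers fell into separate ranges no pooled r is given. Within the upper 7 livers r was -0.47, and the lower 5 are too few for one. Socs2 had both its highest values (Floxed 1, 3 and 6) and its lowest (LKO 5) among livers low in Bcl6. In Floxed livers it read 9.80 to 9.95 in those low in Bcl6 and 7.55 to 9.39 in the others, the same direction as Cish. In LKO livers it read 8.40 (LKO 4) and 7.09 (LKO 5) in those low in Bcl6 and 7.75 to 9.22 in the others. LKO 4 thus lay inside the Socs2 range of those other LKO livers and only LKO 5 lay below it. In Cish, LKO 4 and LKO 5 both lay above the other LKO livers. This contrast was not tested.

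**Figure D4:**
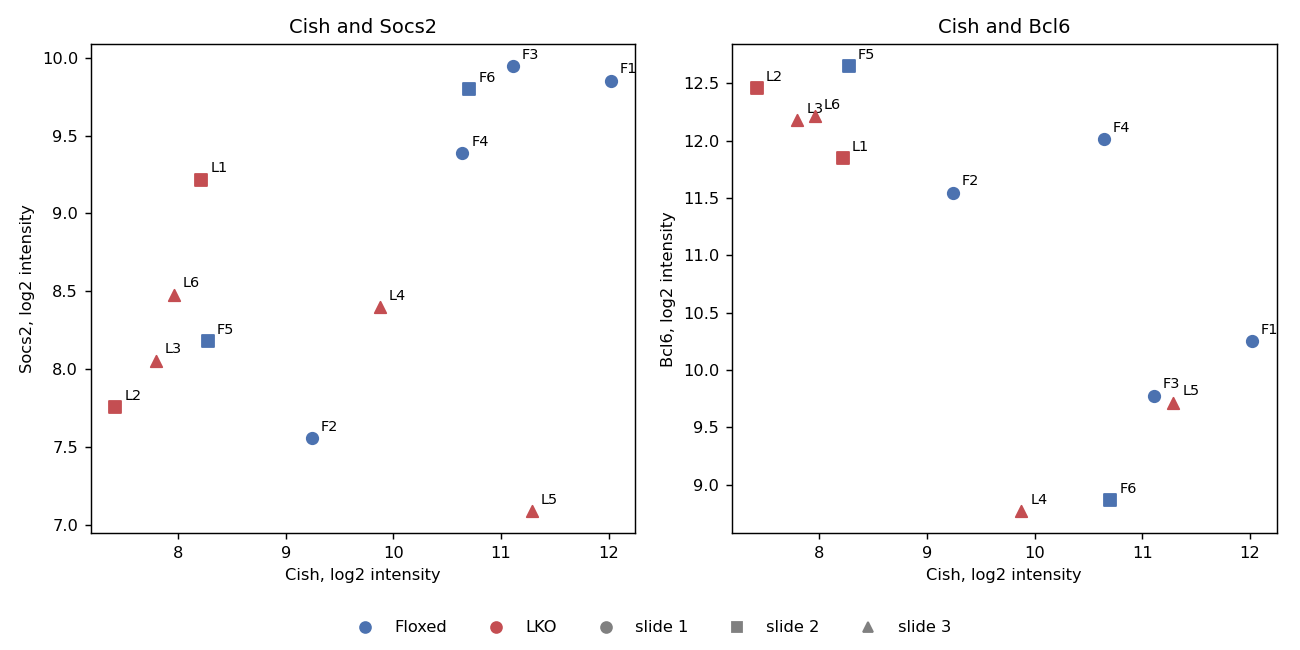
Log2 intensity of Socs2 (left) and of Bcl6 (right) against that of Cish in each liver, with F1 to F6 for Floxed and L1 to L6 for LKO mice and the symbol giving the slide. In the left panel L5 lies alone at high Cish and low Socs2, and in the right panel the livers low in Bcl6 are all at Cish of 9.88 or above.

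The wider pathway was described through 7 lists with 80 genes, of which 62 were tested. Of these, 7 were called, 3 higher and 4 lower in LKO, which is 11.3% against 8.35% of all tested genes. None passed after adjustment, and the median difference was -0.03. The called genes were spread over 6 lists.

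In growth hormone receptor signaling all 12 genes were tested and 1 was called. Stat5a was higher in LKO, at 8.94 ± 0.27 (SD, n = 6) against 8.56 ± 0.17 (SD, n = 6), with a difference of 0.37 and a standard error of 0.13 (limma adjusted p = 0.410). Of the LKO livers 5 lay above the highest Floxed liver. With slide as a fixed block the difference was 0.51 and no longer called. Stat5b, the main growth hormone effector in liver, had 0.16 (standard error 0.11) and Jak2 0.05 (standard error 0.10), neither of them called. Socs3, a suppressor that responds mostly to interleukin signals through Stat3, had -0.64 with a standard error of 0.35 and was not called (limma adjusted p = 0.726). In Floxed livers Socs3 spread from 8.02 to 10.33 and all LKO livers lay inside that range.

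Among the Igf ligands, receptors and adaptors 8 of 11 genes were tested, and 2 were lower in LKO. Grb10, an adaptor that binds the insulin and Igf1 receptors and restrains their signal, was the only one of the 62 genes whose groups did not overlap, as did 0.296% of all tested genes. In Floxed livers 1 to 6 it read 4.85, 4.50, 4.77, 4.80, 4.89 and 4.93. In LKO livers 1 to 6 it read 4.38, 4.20, 4.40, 4.11, 4.47 and 4.44. The highest LKO liver thus lay just below Floxed 2, the lowest of its group. The difference was -0.46 with a standard error of 0.09, a fold of 0.728 (limma adjusted p = 0.241). It was -0.62 within slide 2 and kept an unadjusted p below 0.05 in all 27 alternatives, with differences between -0.62 and -0.13. Grb10 was read by 1 dim probe, brighter on average than only 4.08% of the tested genes. Insr, the insulin receptor gene, had 7.44 ± 0.09 (SD, n = 6) in LKO against 7.69 ± 0.20 (SD, n = 6) in Floxed livers, a difference of -0.25 with a standard error of 0.09 (limma adjusted p = 0.478). Of the Floxed livers 5 lay above the highest LKO liver. These values are from the brightest of 3 Insr probes, and the others were not examined one by one. Insr lost the call with slide as a fixed block, within slide 2, between slides 1 and 3 and without Floxed 5. Igf1r, the Igf1 receptor gene, had -0.10 (limma adjusted p = 0.950), and Igf2, Insrr and Gab1 were not well above background on all arrays.

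Of 10 other binding proteins, proteases and modulators 5 were tested. Adamts1, a secreted metalloprotease, was lower in LKO, with a difference of -0.37 and a standard error of 0.14 (limma adjusted p = 0.464). It was -0.13 within slide 2, and the call was lost there and with slide as a fixed block. Igfbp5 had -0.18 (standard error 0.36) and Igfbp6 0.12 (standard error 0.59), neither of them called, and Igfbp6 had an SD within genotype at percentile 99.8 of the tested genes, above that of Igfbp1. Pappa and Pappa2, which encode proteases that cleave Igf-binding proteins, were not tested, nor were Igfbpl1, Stc1 and Stc2.

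The pulses of growth hormone in males maintain the sex bias of a set of liver genes, and lists of such genes were examined. Growth hormone itself was not measured. Of 14 male-biased genes 13 were tested and 1 was called, Cyp2d9, a steroid hydroxylase gene, with -0.31 and a standard error of 0.13 (limma adjusted p = 0.565). The list had 8 negative and 5 positive differences and a median of -0.09. Hsd3b5, a male-specific steroid reductase gene, had -1.13 with a standard error of 0.55 and was not called (limma adjusted p = 0.633), and LKO 4 at 9.28 and LKO 5 at 10.61 were its lowest livers. Of 16 female-biased genes 9 were tested and 1 was called, Ntrk2, which encodes a neurotrophin receptor, with 0.49 and a standard error of 0.21 (limma adjusted p = 0.560). The median of that list was 0.03. Cyp2d9 and Ntrk2 lost their calls with slide as a fixed block, with the methods' t-test and when single arrays were left out. Ntrk2 also lost its call with normexp background correction (0.36) and with the raw median intensity (0.35). Its values are from the brightest of 3 probes, and the others were not examined one by one.

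Genes that respond to insulin and fasting were set beside Igfbp1. All 9 were tested and 1 was called, Pdk4, which encodes the kinase that shuts pyruvate dehydrogenase during fasting. In Floxed livers 1 to 6 it read 7.35, 7.61, 7.43, 8.13, 7.13 and 7.31. In LKO livers 1 to 6 it read 9.04, 9.14, 8.08, 8.02, 9.20 and 7.80. All LKO livers lay above 5 of the Floxed livers, and LKO 3, 4 and 6 lay below Floxed 4. The difference was 1.05 with a standard error of 0.27, a fold of 2.08 (limma adjusted p = 0.280). It was 1.87 within slide 2, and between slides 1 and 3 it was 0.64 and not called. Pck1 had -0.37 (standard error 0.38) and G6pc, which encodes glucose-6-phosphatase, -0.04 (standard error 0.28), neither of them called. The list had a median of -0.04.

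**Figure D5:**
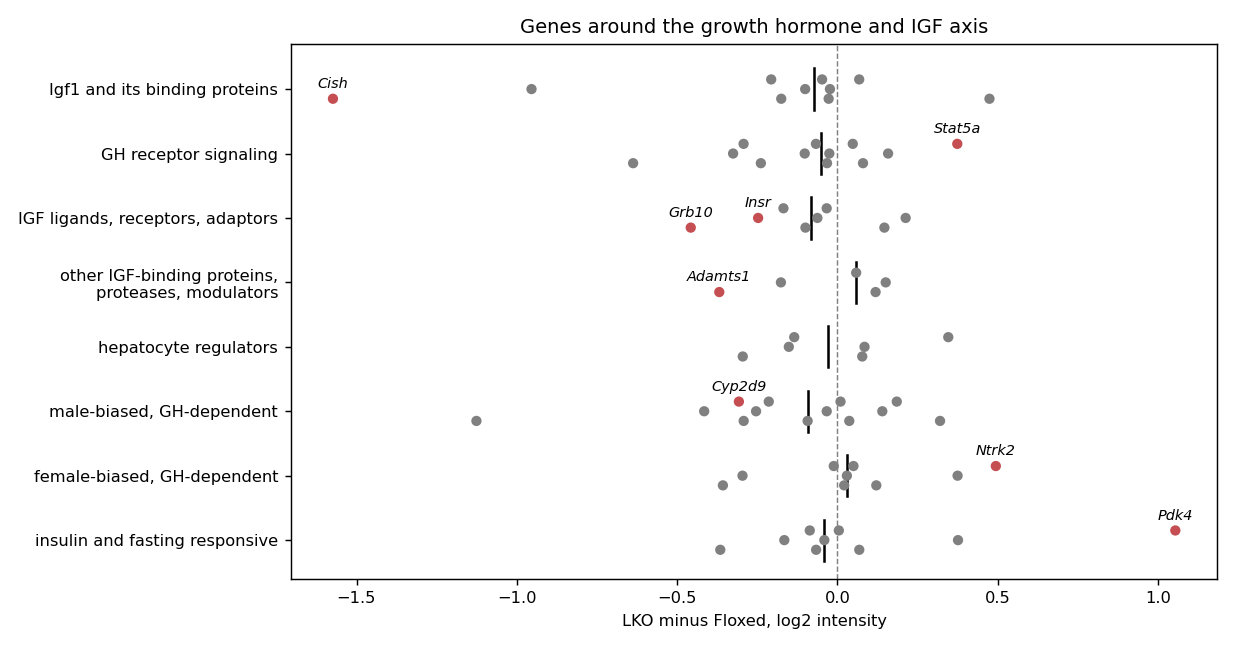
Difference in log2 intensity, LKO minus Floxed, of each tested gene of the 10 examined genes and of the 7 lists around them, with 1 point per gene, red points for an unadjusted limma p below 0.05 and black lines for the median of a list. The list medians lie between -0.09 and 0.06, and the called genes are named.

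The genes whose pattern over the 12 livers was most like that of Igf1 were Fgl1, which encodes a secreted hepatocyte protein (r = 0.90, rho = 0.90), Ccdc163 (r = 0.90, rho = 0.87) and Vapa (r = 0.86, rho = 0.76), of 12501 genes ranked. For Igfbp1 they were Grk5 (r = 0.88, rho = 0.81), Tmem218 (r = 0.87, rho = 0.90) and Tmem9b (r = 0.87, rho = 0.87). The same ranking was made for Cish and Socs2 after their values were seen. It gave Plk3 (r = 0.93, rho = 0.89), Rbm15b (r = 0.91, rho = 0.85) and Foxa2 (r = 0.91, rho = 0.82) for Cish, and Tle1 (r = 0.91, rho = 0.90), Zfp398 (r = 0.90, rho = 0.94) and Abhd17b (r = 0.89, rho = 0.92) for Socs2. No gene was among the leading 3 of more than 1 of these 4 genes. These are the highest values of a ranking, points share the array and its normalization, and they are given as a description.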

How the data were processed

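Cyanine 3-labeled liver RNA of 12 mice was hybridized to Agilent 4x44K mouse arrays. Sample titles gave the genotype and replicate number. For RNA isolation the labels name TRIzol with a Promega column and the methods name RiboPure. The authors deposited, per array, spot intensity values of Agilent Feature Extraction (version 10.7.1.1 per the file headers, 9.5.1.1 per the submitters' notes), corrected for background without normalization between arrays, together with linear, quantile-normalized intensity values per probe. The latter lay within 0.1 log2 units of the values used here for 99.98% of entries.

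Control spots (1377 per array) were left out. Processed intensities were put on the log2 scale and quantile-normalized over the arrays, outlier spots (0.298%, none in the probes of the 10 genes) were removed, and spots of a probe were averaged. The methods' detection p-value was replaced by the mark for signal well above background, required on all 12 arrays (20404 of 39429 probes). RefSeq accessions were matched to a table of GRCm38.p6 (94.3% of 28389 probes), and the brightest probe represented a gene. The RefSeq promoter table has that build.

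Genotypes were compared with limma 3.58.1 (R 4.3.3; lmFit, eBayes, no covariate) over all 16915 genes, with Benjamini-Hochberg adjustment. A gene is called at an unadjusted p below 0.05. Single values were compared by two-sided exact permutation tests, and pairs by 100000 permutations. The code was tested on simulated data. The named genes are the 10 examined genes, Phgdh, the called genes of each pathway list or else the gene with the largest difference, the called genes of each marker list, and the 3 genes most like Igf1 and Igfbp1. Single-gene alternatives and the check for outlying livers cover these except the last group. Other genes were added after their values were seen. The 10 genes and all lists were chosen, the lists from general knowledge, with earlier results of these data known.

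Alternatives covered scaling, background correction, the raw signal, the authors' table, filter, outliers, probe choice, slide, replicate number, threshold, the methods' t-test and each array left out. Leaving out LKO 1 and LKO 2 together was added after the data were seen.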

Additional observations from a re-analysis of the deposited data

Results flagged for a closer look

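Of 44 groups of 6 livers examined among the named genes, 3 held a liver whose gap to the others was large for the range of its group, and chance would give 2.2 at 1 in 20. For Igfbp4, Floxed 1 was lowest at 11.17, while the other Floxed livers lay between 11.67 and 11.82. For Grb10, Floxed 2 was lowest at 4.50, against 4.77 to 4.93 in the others. For the cholangiocyte marker Cftr, LKO 5 was highest at 10.28, while the other LKO livers lay between 8.25 and 8.73. Cftr was called lower in LKO, with a difference of -0.83 (standard error 0.38, adjusted p = 0.592 in limma), as 1 of the 3 cholangiocyte markers tested. It lost the call without the filter on dim probes, with the filter at 6 arrays, by the methods' t-test, between slides 1 and 3 (-0.50) and without LKO 1 and LKO 2 (-0.71), and when any of Floxed 3, 4, 5 or 6 or LKO 1, 2, 3, 4 or 6 was left out (-0.81 to -0.69).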

How the results depend on the processing

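Of the 10 genes, 2 (Cish and Socs2) were called with normexp background correction, with the raw median intensity and with slide as a random block, and 0 with the authors' table, without the filter on dim probes, with the filter at 6 arrays, with slide as a fixed block, between slides 1 and 3 and by the methods' t-test. With each array left out the count lay between 0 and 2, and it was 0 after Benjamini-Hochberg adjustment. The exact permutation test called none of them, and 0 to 2 with each array left out. The count over all genes was 2791 without the filter, 317 with slide as a fixed block, 512 within slide 2, 2173 without LKO 1 and LKO 2, 0 after adjustment and 88 when a log2 fold change of 1 in size was also required. In the 7 lists the count was 3 with slide as a fixed block, 4 within slide 2, 13 without LKO 1 and LKO 2, 0 after adjustment and 1 at that fold, and 5 to 11 with each array left out, 11 being without LKO 2. The cause was not tested.

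The sign turned for genes that were not called. Igfbp3 was 0.074 with 75th percentile scaling, 0.0025 with slide as a random block and 0.12 between slides 1 and 3, and lay between -0.084 and 0.052 with each array left out. With slide as a fixed block and within slide 2, Igfbp2 was 0.26 and Igfbp4 -0.23. Between slides 1 and 3, Igfals was 0.064, Ghr 0.0029 and Bcl6 -0.18, and Bcl6 was -0.13 without LKO 1 and LKO 2. With each array left out Igfbp4 lay between -0.028 (without Floxed 1) and 0.15, Igfals between -0.26 and 0.011 (without LKO 1), Ghr between -0.086 and 0.017 (without Floxed 5) and Bcl6 between -0.051 (without Floxed 6) and 0.83. Over all alternatives, 491 results for single genes kept their direction and side of the threshold, 74 lost the call, 10 gained it and 19 turned.

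Titles give same-numbered Floxed and LKO mice neighboring animal numbers, but no label says that a number marks a litter. Deviations of same-numbered arrays gave r from -0.24 to 0.32, and 2 of 6 Floxed arrays were closest to their own number. No same-numbered mice shared a slide, so these r also carry differences between slides and cannot decide whether the mice were paired. With a replicate block 1428 genes, 5 genes of the lists and 1 of the 10 genes were called, Socs2 (unadjusted limma p of 0.00438) in place of Cish (0.0941).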
